A study of Drosophila melanogaster with 84 samples.

Results

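The 10 genes described here encode enzymes of purine synthesis and purine breakdown in *Drosophila melanogaster*. They were chosen by name (*Prat*, *Prat2*, *Gart*, *Pfas*, *Paics*, *AdSL*, *ras*, *bur*, *ry* and *Uro*) from a table of 23932 features, of which 17869 are FlyBase genes, and all 10 were found. The rule uses names and no threshold on a value, but the list was drawn up with earlier results of these data known.

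Purines are built on ribose phosphate in a chain of reactions that ends in inosine monophosphate (IMP), the common precursor of the adenine and guanine nucleotides. The amidophosphoribosyltransferase encoded by *Prat* and *Prat2* opens the chain, *Gart*, *Pfas*, *Paics* and *AdSL* encode enzymes of its middle part, and *ras* and *bur* lead from IMP to guanosine monophosphate. Breakdown runs from hypoxanthine and xanthine to urate by xanthine dehydrogenase (*ry*), and on to allantoin by urate oxidase (*Uro*), whose transcript in adult flies is known for its restriction to the Malpighian tubules, the excretory organ. The insect fat body combines the storage role of fat tissue with much of the metabolic role of a liver.

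RNA of abdominal fat bodies from mated females was sequenced on day 5 in 84 libraries, each made from the tissue of 10 flies. The groups were wild-type flies at 18°C on food with 15% sucrose and yeast (15% SY, 24 libraries), wild-type flies at 25°C on 5% SY (24 libraries), Clk-Jrk mutants at 25°C on 15% SY (12 libraries), and wild-type flies at 25°C on 15% SY (24 libraries), which were the controls of all 3 comparisons. Wild-type groups had 2 replicates at each of 12 zeitgeber times (ZT, hours after lights on) from ZT2 to ZT24, and Clk-Jrk had 2 replicates at 6 of these times, ZT2 to ZT22 every 4 hours, all in cycles of 12 hours of light and 12 hours of darkness. The labels call the diets high and low calorie, and 15% and 5% SY are taken from their protocol text. All flies carried the w1118 background, in which the *white* transporter of pigment precursors is mutated, and Clk-Jrk, a mutation of the clock gene *Clk*, had been backcrossed 7 times to it. The flies were kept in a pair of incubators with opposite light schedules so that every dissection fell in the daytime, and nothing in the labels says which incubator held which sample. Nor do they say whether replicates came from separate cultures, so p-values measure the spread between these libraries.

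Values are TPM (transcript abundances scaled to the same total in each library), a unit that is scaled for transcript length and from which reads cannot be recovered, so neither sequencing depth nor counting error is known. Between 11497 and 14702 features per library were above 0 TPM. The correlation of a library with the median profile of its group was 0.939 or more in all but 2 libraries, the ZT4 and ZT2 libraries of replicate 1 at 25°C on 15% SY (0.901 and 0.937). All 8 fat body markers had medians above 5 TPM in every group. The dissection removed intestine, ovaries and Malpighian tubules, yet markers of these organs were detected: the summed level of 5 ovary markers had medians of 150, 194 and 227 TPM at 18°C, on 5% SY and in Clk-Jrk, against 702 TPM at 25°C on 15% SY, and that of 7 tubule markers had medians of 155, 214 and 92.2 TPM, against 181 TPM. The sum of 5 midgut markers had medians of 116, 46.8 and 8.75 TPM, against 12.6 TPM. Its highest values were 4079, 8328 and 303 TPM, against 7173 TPM. The highest ovary sums of all libraries, 3133 and 3126 TPM, were those of the ZT4 and ZT2 libraries of replicate 1 at 25°C on 15% SY. The clock target *tim* had a median of 3.47 TPM in Clk-Jrk, against 57.8 TPM in wild type, and *vri* 3.47 against 24.2 TPM. Since Clk-Jrk changes the protein, the level of *Clk* itself does not check the label.

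The genes lie on chromosome arms 3R, 3L, 2L and X. On the minus strand, by BDGP6 coordinates from a newer Ensembl annotation than the authors used, are *Prat* (FBgn0004901, 3R, 7909598 to 7911779), *Prat2* (FBgn0041194, 3L, 6911999 to 6914876), *Gart* (FBgn0000053, 2L, 7014623 to 7023898), *Pfas* (FBgn0000052, 2L, 6041181 to 6046050), *Paics* (FBgn0020513, X, 12757036 to 12760617), *AdSL* (FBgn0038467, 3R, 17018780 to 17021120) and *bur* (FBgn0000239, 2L, 21174182 to 21179683). On the plus strand are *ras* (FBgn0003204, X, 10744502 to 10749097), *ry* (FBgn0003308, 3R, 13032528 to 13038020) and *Uro* (FBgn0003961, 2L, 7780085 to 7781415). Reads were counted without regard to strand, and 5 genes share exon bases with a neighbour: *Prat* 124 with *Taf7*, *Gart* with *CG43322*, *Pfas* 103 with *CG31643*, *bur* 354 with *asRNA:CR44911*, and *ras* 335 with *Rph*, *stx* and *lncRNA:CR44766*. Reads from these bases cannot be assigned to either gene with certainty.

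The levels of the 10 genes spanned a wide range and their order was nearly the same in all groups. *Paics*, which encodes the enzyme that carboxylates the imidazole ring and adds aspartate to it, had the highest mean level everywhere, with 818 ± 135 TPM at 18°C, 842 ± 173 TPM on 5% SY, 798 ± 68.2 TPM in Clk-Jrk and 698 ± 132 TPM at 25°C on 15% SY (SD, n = 24, 24, 12 and 24). It exceeded *Prat2* in 23 of 24 libraries at 18°C and in every library of the other groups. *Prat2* was followed by *Gart*, which encodes a protein with 3 enzyme activities of the pathway, and by *Pfas*, the amidotransferase that acts between the *Gart* steps. *Prat2* exceeded *Gart* in all 84 libraries.

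Below these 4 genes the order was less firm. *Pfas*, *bur* and *ras* were neighbours in all groups with mean levels between 57.3 and 79.5 TPM, and the ranges of neighbours overlapped. *bur* exceeded *ras* in 13 of 24 libraries at 18°C. *Pfas* exceeded *bur* in 16 of 24 libraries at 18°C and in 19 of 24 on 5% SY. It exceeded *ras* in 9 of 12 libraries of Clk-Jrk and in 11 of 24 at 25°C on 15% SY. *AdSL*, which encodes adenylosuccinate lyase, had means of 33.2 to 38.6 TPM, *ry* 19.6 to 23.5 TPM and *Uro* 17.0 to 41.4 TPM. *Prat* was the lowest in mean level in all groups (12.0 to 18.7 TPM), but *ry* exceeded it in only 15 of 24 libraries at 25°C on 15% SY. The level of *Prat2* was 39.7 times that of *Prat* at 18°C (median over libraries, range 11.3 to 124), 28.0 times on 5% SY (12.1 to 65.3), 28.0 times in Clk-Jrk (8.78 to 81.0) and 14.3 times at 25°C on 15% SY (3.85 to 63.6).

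**Figure D1:**
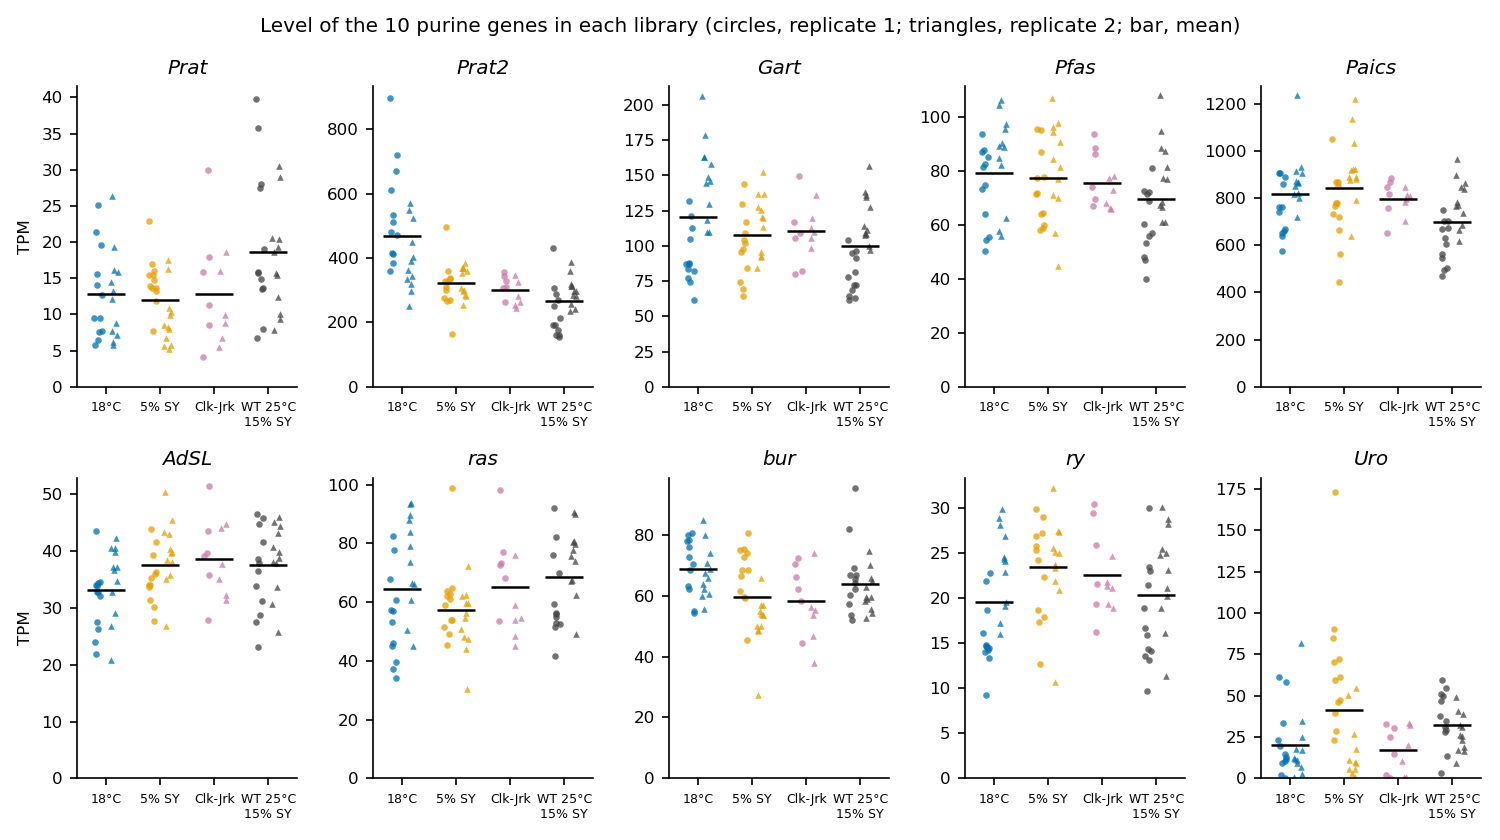
Level of each purine gene in TPM (vertical axes from 0, on a different scale in each panel) in the 24 libraries at 18°C, 24 on 5% SY, 12 of Clk-Jrk and 24 of wild type at 25°C on 15% SY; circles are replicate 1, triangles replicate 2 and bars the group means. *Prat2* averaged 469 TPM at 18°C, against 266 TPM at 25°C, and the groups overlap for all 10 genes.

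The comparison of 18°C with 25°C asks how the level and timing of each transcript differ after acclimation to the cooler temperature. At 18°C, 4 of the 10 genes were higher in mean level (*Prat2*, *Paics*, *Pfas* and *bur*) and 3 were lower (*Prat*, *AdSL* and *Uro*), by limma on log2(TPM + 1) with Benjamini-Hochberg adjustment over 7157 genes. Over all genes tested, 23.1% were higher and 30.5% lower at that threshold of 0.05, and the median difference was 0.03 for the 10 genes and -0.06 for all genes on the log2 scale. The groups overlapped for every gene. Without the ZT2 and ZT4 libraries of replicate 1 at 25°C, 3 genes were higher (*Prat2*, *Paics* and *bur*) and 1 lower (*Uro*).

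The 2 genes of the opening step moved in opposite directions. *Prat2* had a lowest, median and highest level of 250, 433 and 897 TPM at 18°C, against 153, 276 and 432 TPM at 25°C. Of the 24 libraries at 18°C, 12 lay above every 25°C library and the others within their range. The difference was 0.80 ± 0.12 on the log2 scale (SE, 1.75-fold, limma adjusted p = 2.04e-07), with *Prat2* higher at 18°C in 22 of 24 pairs of libraries of the same time and replicate number. Such pairs are given here and below as a description, since the labels give no shared origin for libraries of the same number. The size differed between the replicate series, with a log2 difference of 0.39 without replicate 1 and 1.22 without replicate 2 (limma adjusted p = 0.00798 without replicate 1). All 4 muscle markers that passed the filter, of 5, were also higher at 18°C (median log2 difference 0.48), with a summed level of 1011 to 2926 TPM at 18°C, against 674 to 1567 TPM at 25°C. *Prat2* and the muscle sum had r = 0.78 within the 18°C libraries and 0.17 within the 25°C libraries. For summed haemocyte markers these values were 0.51 and -0.37, and for summed midgut markers 0.57 and 0.11. The part of RNA from muscle or these other tissues in the difference was not tested.

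*Prat* had a lowest, median and highest level of 5.81, 12.4 and 26.4 TPM at 18°C, against 6.80, 15.8 and 39.8 TPM at 25°C. The ranges were nearly the same, apart from 6 libraries at 25°C above 26.4 TPM. *Prat* fell by 0.50 on the log2 scale (SE 0.18; limma adjusted p = 0.0179) and was higher at 18°C in 5 of 24 pairs. The difference stayed near that size but missed the threshold without either replicate series (-0.45 and limma adjusted p = 0.170 without replicate 1, -0.55 and 0.1002 without replicate 2) and without the ZT2 and ZT4 libraries of replicate 1 at 25°C, the 2 libraries with the highest *Prat* (-0.41 and adjusted p = 0.0532). All 5 ovary markers were also lower at 18°C (median log2 difference -1.59); their summed level ranged over 4.78 to 1451 TPM at 18°C, against 32.3 to 3133 TPM at 25°C, and no ovary marker had a median of 0. Within a group, *Prat* and the ovary sum were correlated over the 24 libraries (r = 0.77 at 18°C and 0.68 at 25°C, a description of log2 values that share their libraries). Whether ovarian RNA carried part of the *Prat* difference was not tested, and in bulk tissue fewer cells of a type and less RNA per cell cannot be told apart.

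In the middle of the pathway the differences at 18°C were smaller. *Paics* was higher by 0.24 ± 0.07 (SE; 818 against 698 TPM; limma adjusted p = 0.00657; 19 of 24 pairs) and *Pfas* by 0.19 ± 0.08 (79.5 ± 16.6 TPM at 18°C and 69.6 ± 16.1 TPM at 25°C; limma adjusted p = 0.0376; 19 of 24 pairs). *Gart* differed by 0.25 ± 0.11 (120 ± 37.3 TPM at 18°C and 99.6 ± 26.4 TPM at 25°C) and missed the threshold (limma adjusted p = 0.0592). At every time its level was higher in replicate 2 than in replicate 1, in both groups. Its call depended on the model: with the replicate number as a block, an alternative given in the closing section, *Gart* was called higher. *AdSL* fell by 0.17 (SE 0.07; 33.2 ± 6.25 TPM at 18°C and 37.6 ± 6.87 TPM at 25°C; limma adjusted p = 0.0376). Without replicate 1, *Pfas*, *Paics* and *AdSL* were not called (log2 differences of 0.10, 0.17 and -0.15; limma adjusted p = 0.388, 0.0604 and 0.225) and *Gart* was (0.29, adjusted p = 0.00223). Without replicate 2, *AdSL* was not called (-0.19, adjusted p = 0.109). The ovary sum, lower at 18°C, had r = 0.53 with *AdSL* within the 18°C libraries and 0.70 within those at 25°C. Of 3 oenocyte markers, 2 were higher at 18°C, and their sum had r = -0.52 and -0.65 with *AdSL* within these groups. The part of either in the difference was not tested.

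Beyond IMP, *bur*, which encodes GMP synthetase, was higher at 18°C by 0.11 ± 0.05 (68.9 ± 8.82 TPM at 18°C and 63.9 ± 9.80 TPM at 25°C; limma adjusted p = 0.0399), a call that neither replicate series gave alone (adjusted p = 0.0789 without replicate 1 and 0.340 without replicate 2). Of 4 haemocyte markers, 3 were also higher at 18°C (median log2 difference 0.55; sums of 78.7 to 215 TPM at 18°C, against 79.7 to 136 TPM at 25°C), with r = 0.35 and 0.58 to *bur* within these groups; their part was not tested. *ras*, which encodes IMP dehydrogenase, had 64.5 ± 18.5 TPM at 18°C and 68.4 ± 14.5 TPM at 25°C (log2 difference -0.11, 95% interval -0.32 to 0.10; limma adjusted p = 0.382). *ry* had 19.6 ± 5.70 TPM at 18°C and 20.3 ± 6.02 TPM at 25°C (log2 difference -0.04, interval -0.28 to 0.19; adjusted p = 0.765).

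*Uro* had the largest difference of the 10 genes in this comparison and the widest spread. Its lowest, median and highest levels were 0.48, 12.5 and 82.0 TPM at 18°C, against 2.98, 31.3 and 59.8 TPM at 25°C. *Uro* fell by 1.07 on the log2 scale (SE 0.32; limma adjusted p = 0.00487) and was higher at 18°C in 4 of 24 pairs, and with each replicate series alone the difference kept its size without passing the threshold (-1.01 and adjusted p = 0.0749 without replicate 1, -1.13 and adjusted p = 0.0650 without replicate 2). The highest *Uro* levels at 18°C were the ZT20 libraries (61.0 and 82.0 TPM), the time at which *Uro* was lowest at 25°C (2.98 and 9.01 TPM). The summed tubule markers of these libraries were 543 and 228 TPM at 18°C, against 85.5 and 67.9 TPM at 25°C.

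The level of *Uro* followed the summed tubule markers in every group, with r = 0.73 at 18°C, 0.92 on 5% SY, 0.90 in Clk-Jrk and 0.74 at 25°C on 15% SY (log2 values, 24, 24, 12 and 24 libraries, given as a description). The tubule sum ranged over 19.2 to 543 TPM at 18°C, against 67.9 to 323 TPM at 25°C, and 1 of the 5 tubule markers that passed the filter was lower at 18°C and none higher (median log2 difference -0.25). *Uro* amounted to a median of 7.62% of the tubule sum at 18°C (range 0.901% to 38.0%), against 15.9% at 25°C (3.48% to 31.7%). These shares overlapped over most of their range, and the part of tubule RNA in the *Uro* difference was not tested.

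**Figure D2:**
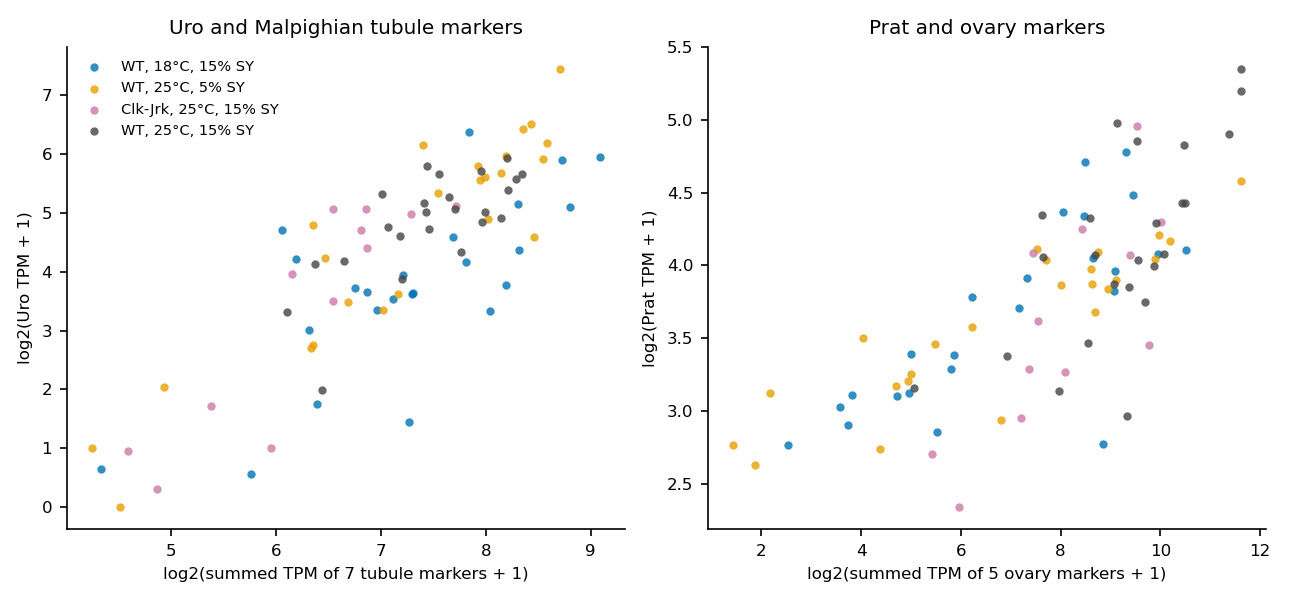
Left, *Uro* level against the summed level of 7 Malpighian tubule markers, and right, *Prat* level against the summed level of 5 ovary markers, all as log2(TPM + 1); each point is 1 of 84 libraries, coloured by group. Libraries with few tubule markers have little *Uro*, with r = 0.73 to 0.92 within groups, and libraries with few ovary markers have little *Prat*, with r = 0.68 to 0.89.

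Other genes of the pathway gave a context for these values at 18°C. Of the 3 further genes of synthesis, *Prps*, which makes the activated ribose, was higher by 0.86 ± 0.09 (SE; 152 TPM at 18°C and 81.8 TPM at 25°C; limma adjusted p = 3.47e-10), *CG11089*, the bifunctional enzyme that closes the ring to IMP, by 0.44 ± 0.12 (adjusted p = 0.00199), and *AdSS* was not called. Among genes that supply folate-bound carbon, *Nmdmc* (94.9 TPM at 18°C and 43.2 TPM at 25°C) and *pug* (342 and 230 TPM) were higher. Of 13 salvage and interconversion genes, 12 passed the filter, 4 were higher and 3 lower. Of 5 genes for the molybdenum cofactor of xanthine dehydrogenase, *Mocs1* was higher and *Mocs2A* and *Mocs2B*, which share a transcript and have the same values, were lower. Of 6 genes listed with the pteridine branch that starts from GTP, 2 were higher, *Pu*, GTP cyclohydrolase (53.3 TPM at 18°C and 33.7 TPM at 25°C), and *DhpD* (77.5 and 65.0 TPM). Of 4 genes of pyrimidine synthesis, *Dhod* was lower (37.1 TPM at 18°C and 42.7 TPM at 25°C).

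**Figure D3:**
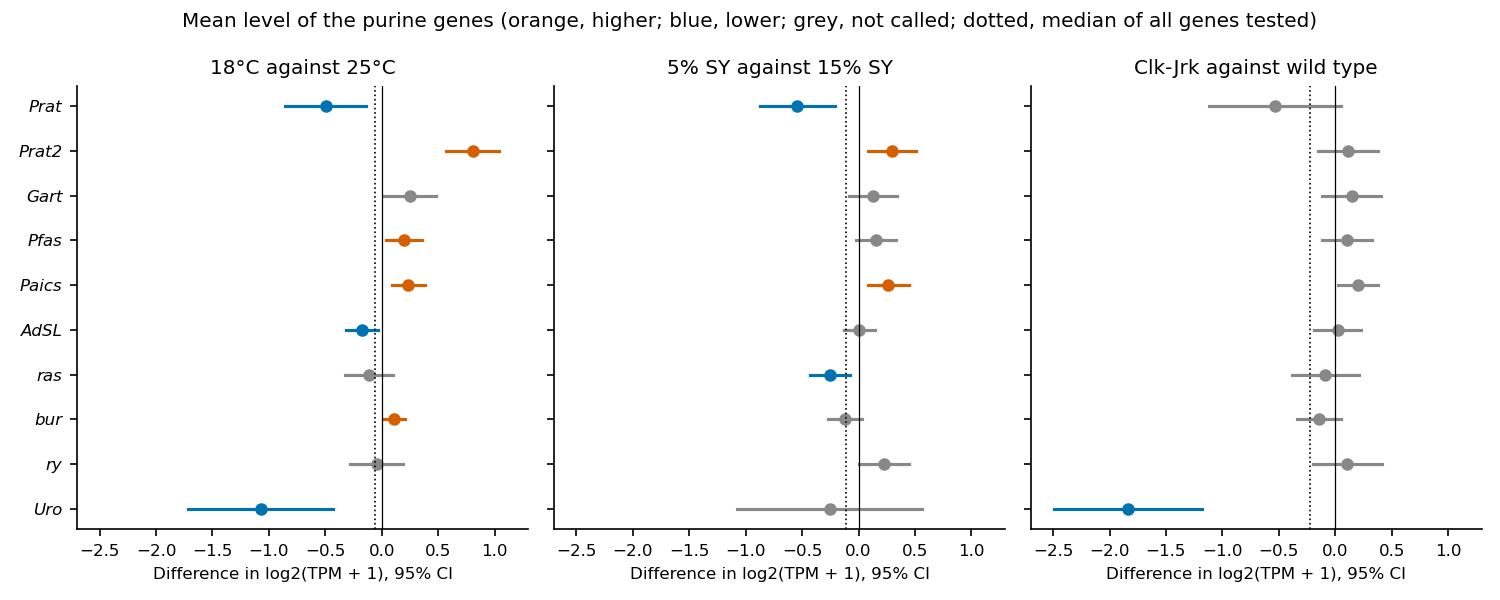
Difference in mean log2(TPM + 1) of each purine gene (points, with 95% intervals from limma) for 18°C against 25°C, 5% SY against 15% SY and Clk-Jrk against wild type; orange and blue mark genes higher and lower at an adjusted p below 0.05, grey those not called, and the dotted line the median of all genes tested. *Prat2* stands at 0.80 in the first panel and *Uro* at -1.07 and -1.83 in the first and last panels.

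The diet comparison asks what the diluted diet does to these transcripts at 25°C. On 5% SY, 2 of the 10 genes were higher in mean level (*Prat2* and *Paics*) and 2 were lower (*Prat* and *ras*), by limma over 7000 genes, where 6.26% of all genes were higher and 25.8% lower. The median log2 difference was 0.07 for the 10 genes and -0.11 for all genes. Rescaling the libraries by the median of ratios moved the median of all genes to -0.0032. After it, 4 of the 10 were higher (*Pfas* and *ry* in addition, limma adjusted p = 0.0490 and 0.0447) and only *Prat* was lower. The shares of all genes called after rescaling were not computed, so these counts cannot be set against 6.26% and 25.8%.

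*Prat2* had a lowest, median and highest level of 165, 318 and 495 TPM on 5% SY, against 153, 276 and 432 TPM on 15% SY, a log2 difference of 0.30 ± 0.10 (limma adjusted p = 0.0294; higher in 19 of 24 pairs). *Paics* had 446, 867 and 1219 TPM on 5% SY, against 470, 693 and 966 TPM on 15% SY, a log2 difference of 0.26 ± 0.09 (limma adjusted p = 0.0230; higher in 20 of 24 pairs). *Prat* had 5.20, 12.6 and 22.9 TPM on 5% SY, against 6.80, 15.8 and 39.8 TPM on 15% SY, and fell by 0.54 (SE 0.16; limma adjusted p = 0.0151). *ras* had 30.6, 57.8 and 99.0 TPM on 5% SY, against 41.8, 68.8 and 92.2 TPM on 15% SY, and fell by 0.25 (SE 0.09; limma adjusted p = 0.0293). The ranges on both diets overlapped over most of their length for all 4 genes.

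Without the ZT2 and ZT4 libraries of replicate 1 on 15% SY none of the 4 was called, with log2 differences of 0.22 for *Prat2*, 0.22 for *Paics*, -0.46 for *Prat* and -0.24 for *ras* (limma adjusted p = 0.108, 0.0776, 0.0549 and 0.0665). Without replicate 2 none was called either, while *Prat2* and *Paics* differed by 0.46 and 0.30, more than over both replicates, and *Prat* and *ras* by -0.28 and -0.03, less than over both (adjusted p = 0.252, 0.285, 0.480 and 0.894). Without replicate 1 *Prat2* lost its call (0.14, adjusted p = 0.196), *Paics*, *Prat* and *ras* kept theirs, and *bur* and *Uro* were lower (adjusted p = 0.0233 and 0.0260). Of 5 ovary markers, 4 were lower on 5% SY (median log2 difference -1.58), with sums of 1.70 to 3122 TPM on 5% SY, against 32.3 to 3133 TPM on 15% SY, and the correlation of the ovary sum within the 5% SY libraries was 0.89 for *Prat* and 0.45 for *ras*. Of 4 muscle markers tested, 2 were higher on 5% SY, and the muscle sum had r = 0.53 with *Prat2* within those libraries; their part in the differences was not tested.

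*Gart*, *Pfas*, *AdSL*, *bur*, *ry* and *Uro* were not called between the diets. The interval of the log2 difference was -0.08 to 0.34 for *Gart*, -0.02 to 0.33 for *Pfas*, -0.13 to 0.14 for *AdSL* and -0.27 to 0.03 for *bur*. *ry* had 23.5 ± 5.12 TPM on 5% SY and 20.3 ± 6.02 TPM on 15% SY (log2 difference 0.22; limma adjusted p = 0.113).

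*Uro* on 5% SY split by replicate series. Replicate 1 averaged 66.4 ± 39.6 TPM (SD, n = 12; highest 173 TPM at ZT4) and replicate 2 averaged 16.3 ± 18.5 TPM (0 TPM at ZT22), against 36.7 ± 17.0 and 27.5 ± 11.7 TPM on 15% SY. The tubule marker sum had medians of 308 and 84.3 TPM in these replicates on 5% SY, against 248 and 158 TPM on 15% SY. Over both replicates *Uro* differed by -0.26 ± 0.41 (limma adjusted p = 0.651), by -1.41 without replicate 1 and by 0.90 without replicate 2, so the direction of the difference was not fixed.

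Of the other pathway genes, none of the 3 further synthesis genes or the 6 pteridine genes was called by limma on 5% SY. Of the 12 salvage genes tested 3 were higher and none lower: *CG16758* (263 TPM on 5% SY and 206 TPM on 15% SY), *Adgf-D*, an adenosine deaminase-related growth factor (155 and 127 TPM), and *AdenoK*, adenosine kinase (197 and 176 TPM). *mal*, which sulfurates the molybdenum cofactor, was lower (7.55 TPM on 5% SY and 9.29 TPM on 15% SY; limma adjusted p = 0.0222). All 4 pyrimidine synthesis genes were lower on 5% SY (median log2 difference -0.38).

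The comparison of Clk-Jrk with wild type, over 12 libraries of each genotype at the same 6 times, asks what the loss of a working clock does to these transcripts. In Clk-Jrk, 1 of the 10 genes was lower (*Uro*) and none was higher by limma over 7093 genes, where 10.2% of all genes were higher and 36.5% lower. At an unadjusted limma p below 0.05, 1 of the 10 was higher (*Paics*) and 1 lower. The shares of all genes at that unadjusted threshold were not computed. The median log2 difference was 0.06 for the 10 genes and -0.22 for all genes. Rescaling by the median of ratios moved the median of all genes to 0.02. Under it 4 of the 10 were higher (*Paics*, *Pfas*, *AdSL* and *Gart*, with log2 differences of 0.46, 0.36, 0.27 and 0.40 and limma adjusted p = 0.00564, 0.0207, 0.0309 and 0.0426) while *Uro* remained lower. The shares of all genes called after rescaling were not computed, so 4 of 10 cannot be set against the 10.2% of the deposited scale. Under that scaling *bur* and *ras*, which were not called either way, changed sign (0.11 and 0.17, against -0.15 and -0.09 as deposited).

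*Uro* in Clk-Jrk had 25.0 and 33.7 TPM at ZT2, 32.6 and 20.2 TPM at ZT6, 14.6 and 32.6 TPM at ZT10, 30.6 and 10.4 TPM at ZT14, 0.24 and 1.00 TPM at ZT18, and 2.30 and 0.93 TPM at ZT22. In wild type it had 46.7 and 49.5 TPM at ZT2, 49.7 and 31.3 TPM at ZT6, 51.2 and 25.4 TPM at ZT10, 31.3 and 23.3 TPM at ZT14, 29.3 and 26.1 TPM at ZT18, and 54.7 and 40.7 TPM at ZT22. The 4 Clk-Jrk libraries of ZT18 and ZT22 lay below every wild-type library, and of the other 8, 3 lay below the 12 wild-type libraries of these times and 5 within their range. *Uro* averaged 17.0 ± 13.8 TPM in Clk-Jrk and 38.3 ± 11.6 TPM in wild type and fell by 1.83 on the log2 scale (SE 0.31; limma adjusted p = 0.000148), with 1 of 12 pairs higher in Clk-Jrk. It remained called without either replicate series (adjusted p = 0.0194 and 0.0311).

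The tubule markers moved with *Uro* here. Of the 5 that passed the filter, 4 were lower in Clk-Jrk and none higher (median log2 difference -1.57), and the tubule sum ranged over 23.1 to 209 TPM in Clk-Jrk, against 67.9 to 323 TPM in the 24 wild-type libraries. In the Clk-Jrk libraries of ZT18 and ZT22, the sum was 28.3, 60.9, 40.7 and 23.1 TPM. *Uro* amounted to a median of 16.8% of the tubule sum over the 12 Clk-Jrk libraries, against 15.9% over the 24 of wild type. At ZT18 and ZT22 it was 0.849%, 1.64%, 5.65% and 4.03% of the sum in Clk-Jrk, against 10.4%, 19.5%, 31.7% and 13.8% in wild type. These times were singled out because *Uro* was lowest there in Clk-Jrk, so a low share is partly a matter of selection. At ZT2, ZT6, ZT10 and ZT14 the share ranged over 11.3% to 35.4% in Clk-Jrk, against 12.3% to 26.6% in wild type. The part of tubule RNA in the *Uro* difference was not tested.

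The other 9 genes were not called in Clk-Jrk. *Paics* had 798 ± 68.2 TPM in Clk-Jrk and 701 ± 120 TPM in wild type (log2 difference 0.20, interval 0.03 to 0.38; limma adjusted p = 0.0560). *Prat* had 12.8 ± 7.30 TPM in Clk-Jrk and 18.5 ± 9.02 TPM in wild type (log2 difference -0.54, interval -1.12 to 0.05; limma adjusted p = 0.116), and 2 of 5 ovary markers were lower. The log2 intervals were -0.15 to 0.38 for *Prat2*, -0.12 to 0.41 for *Gart*, -0.12 to 0.33 for *Pfas*, -0.18 to 0.23 for *AdSL*, -0.39 to 0.21 for *ras*, -0.34 to 0.05 for *bur* and -0.20 to 0.42 for *ry*, all of which include 0. Without replicate 1, *ras* was lower in Clk-Jrk (-0.56, limma adjusted p = 0.0164).

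Other genes of the pathway were called in both directions in Clk-Jrk, where 10.2% of all genes were higher and 36.5% lower. All 3 further synthesis genes were called: *Prps* was lower (57.3 TPM in Clk-Jrk and 80.8 TPM in wild type; limma adjusted p = 0.00432), *AdSS*, adenylosuccinate synthetase, was lower (131 and 157 TPM) and *CG11089* was higher (199 and 148 TPM). *Nmdmc*, a mitochondrial enzyme of folate-bound carbon, fell by 1.45 on the log2 scale (16.2 TPM in Clk-Jrk and 45.3 TPM in wild type; limma adjusted p = 2.12e-06), and *pug*, its cytosolic counterpart, was higher by 0.68 (361 and 236 TPM). In salvage, *veil*, a nucleotidase, fell by 1.08 (5.63 TPM in Clk-Jrk and 13.6 TPM in wild type; limma adjusted p = 0.00821), *Adgf-A* and the nucleoside diphosphate kinase gene *awd* were also lower, and none was higher. Of the 6 genes listed with the pteridine branch 3 were higher, *Hn* (586 TPM in Clk-Jrk and 349 TPM in wild type), *pr* (66.9 and 58.8 TPM) and *Dhpr* (70.5 and 62.0 TPM). *Hn* encodes phenylalanine hydroxylase, which is not itself a step from GTP to pteridines. None of the 5 molybdenum cofactor genes was called by limma, and the pyrimidine genes *r-l* (15.8 and 25.7 TPM) and *CTPsyn* (24.7 and 30.4 TPM) were lower.

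The time course of each gene was described by harmonic regression of TPM on a 24-hour cosine, within each group, with the study's threshold of an unadjusted p below 0.1. At 18°C, 8 of the 10 genes passed, all but *Prat* and *ras*, where 30.5% of all genes tested did. On 5% SY none of the 10 passed by harmonic regression, at p below 0.1 or below 0.05 (all genes, 10.1%), in Clk-Jrk 3 passed (*Gart*, *Paics* and *Uro*; all genes, 18%), and at 25°C on 15% SY 2 passed (*AdSL* and *bur*; all genes, 19%). After Benjamini-Hochberg adjustment over all genes, only *Pfas* and *bur* at 18°C were below 0.1.

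The cosine peaks of the genes that passed at 18°C lay in the light phase for 5 genes and between the middle of the night and lights on for the others. *AdSL* peaked at ZT6.28 ± 1.17 (SE in hours; harmonic regression p = 0.0130), *Pfas* at ZT7.31 ± 0.80 (p = 0.000431), *Prat2* at ZT8.27 ± 1.53 (p = 0.0657), *Gart* at ZT10.3 ± 1.37 (p = 0.0362) and *Paics* at ZT10.9 ± 1.47 (p = 0.0536). *bur* peaked at ZT18.1 ± 0.71 (p = 0.000107), *Uro* at ZT21.6 ± 1.59 (p = 0.0788) and *ry* at ZT0.12 ± 1.63 (p = 0.0867). By these peaks, the 5 genes of the chain up to IMP that passed were highest in the light phase, *bur* and *Uro* in the dark phase and *ry* near lights on. *ry* averaged 19.6 TPM over the times up to ZT12 and 19.5 TPM over the later ones. *Pfas*, *bur*, *Gart* and *AdSL* passed in each replicate alone, *Paics* only in replicate 1, *Prat2* and *ry* only in replicate 2, and *Uro* in neither (harmonic regression p = 0.149 and 0.544). After adjustment all but *Pfas* and *bur* were above 0.1. The amplitude was 11.3% of the mean level for *Paics*, 13.5% for *bur*, 20.9% for *Pfas* and 65.0% for *Uro*.

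*Pfas* at 18°C averaged 90.6 TPM over the light-phase times up to ZT12 and 68.3 TPM over the later times. From ZT2 to ZT12 its levels ran from 74.7 to 106 TPM, and at ZT18 and ZT20 they were 54.5, 55.8, 55.5 and 62.6 TPM. At 25°C it averaged 75.3 TPM in the light phase and 63.8 TPM in the dark phase, with a cosine peak at ZT6.38 ± 1.81 that did not pass (harmonic regression p = 0.133). No difference in rhythm was called for *Pfas* in this comparison (limma adjusted p = 0.632).

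*bur* was the only one of the 10 genes with a called difference in rhythm at 18°C against 25°C (limma adjusted p = 0.0464), where 0.964% of all genes tested were called. At 18°C its values were 54.4 and 62.2 TPM at ZT2, 63.3 and 59.9 TPM at ZT4 and 55.1 and 60.6 TPM at ZT6, and 76.0 and 84.9 TPM at ZT16, 80.6 and 66.0 TPM at ZT18 and 79.9 and 79.9 TPM at ZT20. At 25°C they were 65.6 and 74.6 TPM at ZT2, 95.5 and 59.5 TPM at ZT4 and 67.0 and 54.4 TPM at ZT6, and 62.2 and 52.6 TPM at ZT16, 66.8 and 64.9 TPM at ZT18 and 64.1 and 59.0 TPM at ZT20. The cool libraries were thus lowest after lights on and highest in the middle of the night, and the warm libraries peaked near dawn, at ZT1.04 ± 1.11 (harmonic regression p = 0.00921). The peak was at ZT17.5 and ZT18.9 in the separate replicates at 18°C, against ZT1.26 and ZT0.51 at 25°C.

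The call for *bur* was close to its threshold. It was lost without replicate 1, without replicate 2 (limma adjusted p = 0.634 and 0.204), without the ZT2 and ZT4 libraries of replicate 1 at 25°C (0.134), the second of which held the highest *bur* level of all 84 libraries, and after scaling by the median of ratios (0.277).

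**Figure D4:**
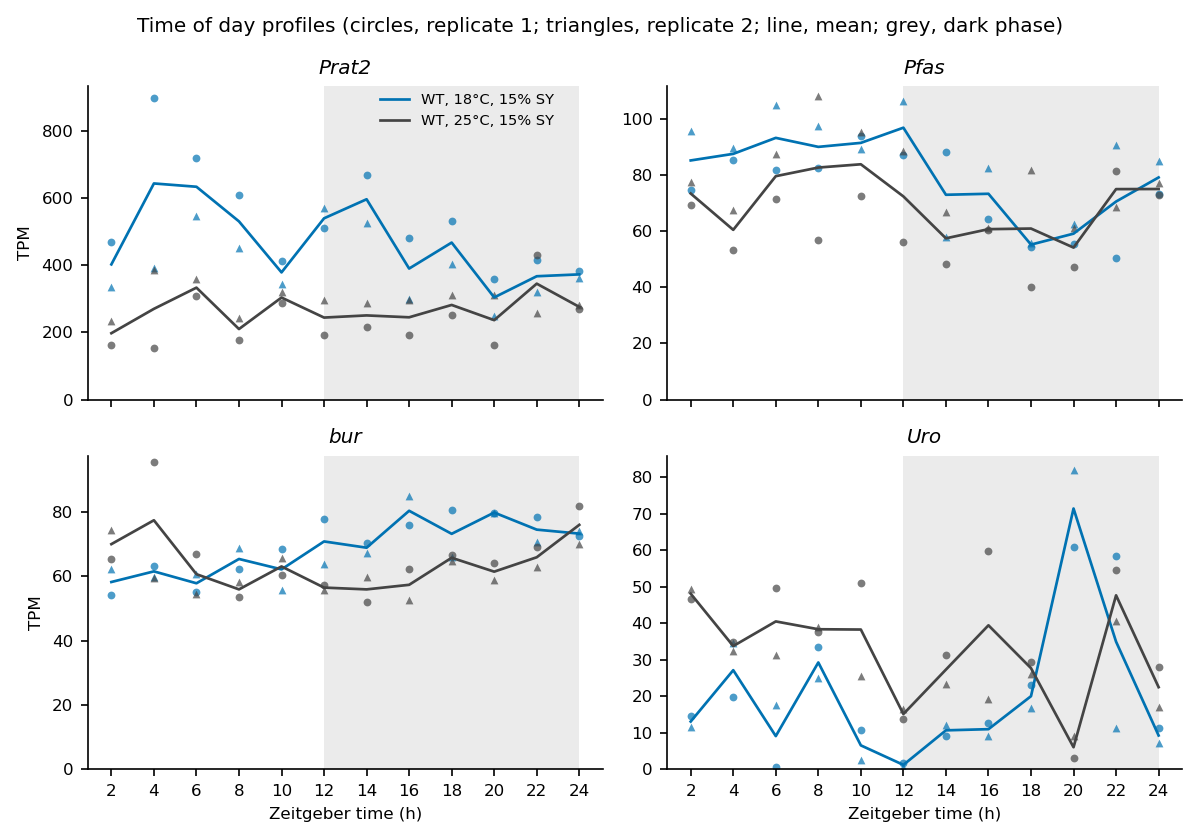
Level in TPM (vertical axes from 0) against zeitgeber time for *Prat2*, *Pfas*, *bur* and *Uro* in wild type at 18°C (blue) and 25°C (grey) on 15% SY; circles are replicate 1, triangles replicate 2, lines the means of 2 replicates, and shading the dark phase. *bur* has its cosine peak at ZT18.1 at 18°C and at ZT1.04 at 25°C, and *Uro* at ZT20 stands at 61.0 and 82.0 TPM at 18°C, against 2.98 and 9.01 TPM at 25°C.

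None of the 10 genes had a called difference in rhythm on 5% SY against 15% SY (0% of all genes by limma; 0 of the 10 and 98 of 7000 genes at an unadjusted p below 0.05). None was called in Clk-Jrk against wild type either (0.0282% of all genes by limma). At an unadjusted limma p below 0.05, 2 of the 10 passed (*Uro* with p = 0.000611 and *AdSL* with p = 0.0406), as did 629 of 7093 genes. The cosine of *Uro* in Clk-Jrk peaked at ZT7.03 ± 1.08 with an amplitude of 83.7% of its mean (harmonic regression p = 0.0194), and the tubule marker sum was lowest at the same times as *Uro*. *Gart* and *Paics* in Clk-Jrk peaked at ZT13.8 and ZT8.51 (p = 0.0976 and 0.0392); all 3 calls were lost with either replicate series alone.

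Light phase and incubator cannot be told apart in this design if, as the protocol implies, light-phase and dark-phase flies came from different incubators. With a covariate that separates times up to ZT12 from later ones, 1 of the 10 genes passed at 18°C (*ry*, p = 0.0395) in place of 8, 1 in Clk-Jrk (*Prat2*, p = 0.0452) and 1 at 25°C on 15% SY (*bur*, p = 0.0115), by the same regression. Such a step has much the same shape as a cosine that peaks in the middle of the light or dark phase. It can therefore take up the signal of genes with such peaks. *Gart*, *Paics* and *Uro* peaked further from these times at 18°C (ZT10.3, ZT10.9 and ZT21.6). They did not pass either (harmonic regression with the step, p = 0.133, 0.115 and 0.203). What lay behind the drop from 8 to 1 was not tested, and the drop does not measure an effect of the incubator. The share of all genes that passed with this covariate is not given here.

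Across the 84 libraries, the levels of the genes were compared after the mean of each group was subtracted (Pearson r of log2 values, given as descriptions over libraries that share dissection and scaling). The highest values were 0.74 for *Pfas* and *AdSL*, 0.73 for *Gart* and *Paics*, 0.70 for *AdSL* and *ras*, 0.66 for *Prat* and *ras* and 0.65 for *Gart* and *Pfas*, while *Paics* and *AdSL*, both of the middle of the chain, had 0.20. The paralogs *Prat* and *Prat2* had r = -0.40, the lowest of the 45 pairs. *ry* was most like *Gart* (0.49) and *Uro* most like *bur* (0.36).

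Of 7241 other genes, those most like *Prat* over the 84 libraries were *Grip84*, a component of the gamma-tubulin complex (r = 0.97), *Ssrp*, a subunit of a histone chaperone (0.97), and *Rcc1*, the exchange factor of the Ran GTPase (0.96). The correlation of *Prat* with the ovary sum within groups was 0.77 at 18°C, 0.89 on 5% SY, 0.77 in Clk-Jrk and 0.68 at 25°C on 15% SY. Those most like *ry* were *AdenoK* (r = 0.80), *CG32191* (0.79) and *CG3829* (0.78).

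**Figure D5:**
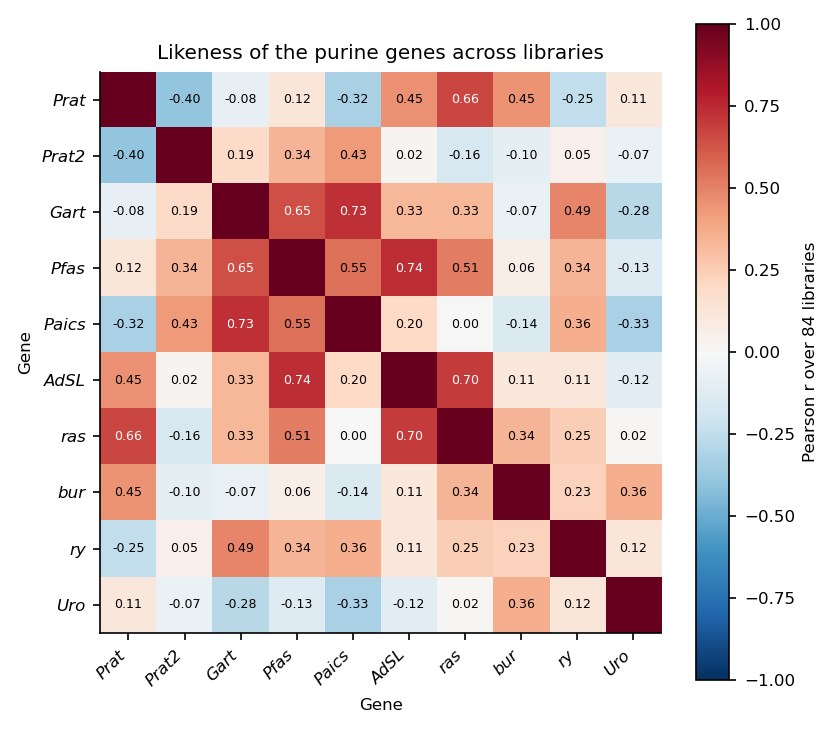
Pearson correlation between each pair of the 10 purine genes over 84 libraries, on log2(TPM + 1) less the mean of each group (colour scale from -1 to 1, values printed in the cells). *Pfas* with *AdSL* (0.74) and *Gart* with *Paics* (0.73) are the highest pairs, and *Prat* with *Prat2* the lowest (-0.40).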

How the data were processed

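Polyadenylated RNA of abdominal fat bodies was sequenced as single-end reads. The authors checked reads with FastQC, trimmed them with Atropos, and aligned and quantified them without regard to strand against Ensembl BDGP6, with STAR 2.7.10a and RSEM 1.3.1 per the submitters' processing notes. The deposited values are TPM, used as deposited; they keep no counts, so depth is unknown and errors describe the spread between libraries. Groups, replicates and times came from sample titles, which give ZT2 to ZT24 where the protocol text gives an earlier range.

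The 10 genes and the lists of pathway and marker genes were chosen with earlier results of these data known. Genes with a median TPM above 5 in a compared group were kept. Mean level and rhythm were tested with limma 3.58.1 (R 4.3.3) on log2(TPM + 1), with group, the cosine and sine of 24 hours and their products with group, in the libraries of the 2 compared groups only. Fold changes are on that scale, which understates changes of low genes. Clk-Jrk was compared with the 12 wild-type libraries of the same 6 times. The Benjamini-Hochberg threshold was 0.05. Harmonic regression used TPM and an unadjusted p below 0.1, a looser call than the study's, which also asked for a second experiment, not used here. All 3 comparisons share the wild-type libraries at 25°C on 15% SY. All 10 genes were named; other pathway genes were named where called with a log2 difference of at least 1, or where 3 or fewer of a list were called in a comparison. A gene of these lists is not reported here. Alternatives were other filters, another pseudocount (0.1), scaling by the median of ratios, the replicate block, time as a factor, all 24 wild-type libraries, log2 values, a light-dark step, other thresholds and each replicate left out. The scripts were tested on simulated data. Figures were drawn with matplotlib 3.10.9.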

Additional observations from a re-analysis of the deposited data

Results flagged for a closer look

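The rhythm of *bur* was the 1 difference in rhythm between groups that was called among the 10 genes, by a test of the interaction of group and time, with a limma adjusted p of 0.0464 for 18°C against 25°C and a cosine peak at ZT18.1 at 18°C, against ZT1.04 at 25°C. The call was lost when either replicate series was left out, and its cause was not tested.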

How the results depend on the processing

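The called direction of no gene turned under any alternative. At 18°C, the count of 4 higher and 3 lower genes became 2 to 3 higher and 0 to 0 lower with each replicate left out, and 1 lower without the ZT2 and ZT4 libraries of replicate 1 at 25°C, an alternative chosen after seeing the data; *Prat2* was called in all of them. The 1 difference in rhythm became 0 after scaling by the median of ratios, with a filter at 1 TPM, with each replicate left out (0 to 0) and without those 2 libraries. On 5% SY, the counts of 2 higher and 2 lower became 4 and 1 by the median of ratios, 1 and 1 with no filter, 0 and 0 without those 2 libraries, and 0 to 1 and 0 to 4 with each replicate left out. In Clk-Jrk, the count of 0 higher became 4 by the median of ratios and 1 against all 24 wild-type libraries, and 1 lower became 2 against all 24 and 1 to 2 with each replicate left out. Cyclers at 18°C (8) became 4 at p below 0.05, 2 after adjustment, 1 with the light-dark step and 5 to 6 with each replicate left out. Those on 5% SY (0) became 1 by the median of ratios and 0 to 2 with each replicate left out, those in Clk-Jrk (3) became 1, 0 after adjustment, 1 with the step and 0 to 0, and those at 25°C on 15% SY (2) became 1, 1 at p below 0.05, 0 after adjustment, 1 with the step and 1 to 3. The cause of these shifts was not tested. For mean levels, the share of all genes called under each alternative was not computed. For cyclers and for differences in rhythm, that share is not given here. The changes in these counts therefore cannot be set against those of all genes, and whether they are particular to the purine genes was not tested. Of the 310 log2 differences of single genes under alternatives, 267 kept their direction and side of the threshold.

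With the replicate block, 5 genes were higher at 18°C (*Gart* in addition, adjusted p = 0.000769), 1 was higher in Clk-Jrk (*Paics*, 0.0417), and 1 cycled on 5% SY. Same-numbered libraries at the same time correlated in their deviations by 0.28 on average for 18°C and 25°C (-0.16 to 0.59), by 0.27 for the diets (-0.07 to 0.59) and by -0.17 for the genotypes (-0.40 to 0.35). The correlation was above 0.1 at 10 of 12, 11 of 12 and 1 of 6 times, not at every one, and the labels give no shared origin, so the replicate number was not treated as a pairing. TPM leaves the depth unknown, which limits the lowest values most.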
